A study of Arabidopsis thaliana with 16 samples.

Results

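The plastid GNAT acetyltransferases are 8 nuclear genes, GNAT1 (AT1G26220), GNAT2 (AT1G32070, also named NSI), GNAT3 (AT4G19985), GNAT4 (AT2G39000, also named NAA70), GNAT5 (AT1G24040), GNAT6 (AT2G06025), GNAT7 (AT4G28030) and GNAT10 (AT1G72030). They were chosen by locus code, and all 8 were found among the 27826 probe sets, 1 probe set per locus. Leaf RNA of 6-week-old Arabidopsis thaliana was measured on 16 Affymetrix arrays, 4 for each of 4 genotypes: the wild type (WT), a NAA10 knockdown line made with an artificial microRNA (amiNAA10), and 2 HYPK T-DNA insertion lines, one with the insertion in exon 1 and one with it in exon 2. Soil-grown plants were kept untreated in short days (8.5 h of light), with day and night temperatures of 22 °C and 18 °C. The series' design text names the insertion alleles hypk-1 and hypk-3 but does not tie either to an exon. The knockdown is represented by a single line, and the promoter that drives its artificial microRNA is not given in the sources used here. It is also not stated whether a genotype's 4 samples came from different plants, so the p-values here rest on a spread among samples that could be technical in part.

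GNAT proteins are acetyltransferases of the GCN5-related type, which move an acetyl group from acetyl-CoA to an amine. The plastid members are made in the cytosol, imported, and can acetylate both the amino terminus of plastid proteins and the side chain of lysines. Cytosolic N-terminal acetylation is carried out by other enzymes, among them NatA, whose catalytic subunit is NAA10, whose ribosome anchor is NAA15 and which HYPK binds. The array lines therefore target the cytosolic system, and the plastid enzymes are a separate set with the same kind of chemistry.

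Values are expression levels on the log2 scale after robust multi-array averaging (RMA), so a difference of 1 is a change of 2-fold. Levels of different genes come from different probes and are not set against each other. Differences are the first group minus the second, SE is the standard error, and adjusted p-values are from limma over all 27826 probe sets, with a call at an adjusted p under 0.05. All 8 genes had a mean level above 1.83, the level that bounds the dimmest 30% of probe sets. NAA10 itself was at 23.8% of its WT level in amiNAA10 (difference -2.07, SE 0.12, limma adjusted p = 2.46e-08). HYPK was at 52.0% of its WT level in the exon 1 line (-0.94, SE 0.13, limma adjusted p = 0.000155) and at 83.5% in the exon 2 line (-0.26, SE 0.13, limma adjusted p = 0.191), so the exon 2 label has no check from HYPK signal. On the first principal component of all probe sets, replicate 4 of the exon 2 line stood apart from its group (-44.3, against -1.87 to 15.5), and so did replicate 2 of amiNAA10 (-57.4, against -34.9 to -30.9). The exon 1 line was split, with replicates 2 and 3 at -32.5 and -27.2 and replicates 1 and 4 at -0.01 and -5.34. WT replicate 4 was at 50.1, against 62.1 to 66.0. Without exon 1 replicate 2 the share of probe sets called between that line and WT went from 19.6% to 13.6%.

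In leaves with less NAA10 transcript, 6 of the 8 plastid GNAT transcripts fell and none rose. GNAT10 fell to 44.5% of its WT level, GNAT3, GNAT1, GNAT2 and GNAT7 to between 58.3% and 61.5%, and GNAT6 to 80.1%, while GNAT4 and GNAT5 did not pass the test. Over all probe sets 30.7% were called between amiNAA10 and WT, and 15.4% were called lower. Among the probe sets above the dimmest 30%, where all 8 genes lie, 44% were called when tested alone. The median difference of the 8 genes was -0.72, against -0.02 over all probe sets. In the same 6 genes all 4 amiNAA10 arrays lay below all 4 WT arrays, a separation, above or below, that 30.6% of probe sets showed. For 4 arrays against 4, the exact permutation test gave each of these 6 genes p = 0.0286 (two-sided), the smallest p this design allows. Groups that do not overlap always give this value, and the permutation p-values here are not adjusted for the number of tests.

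**Figure D1:**
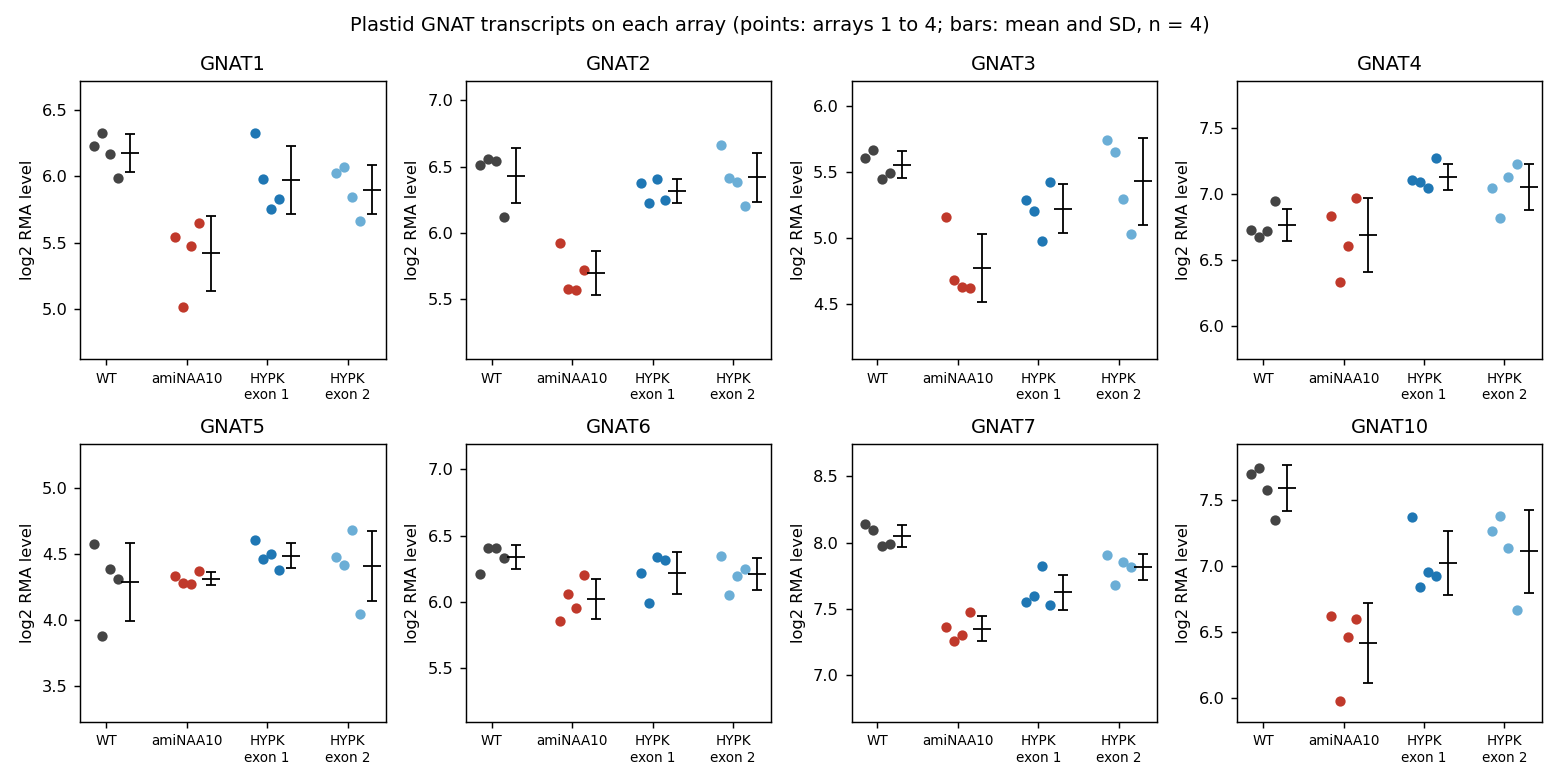
Level of each plastid GNAT transcript (vertical axis, log2 RMA level, 8 panels that span the same number of log2 units) on every array of the 4 genotypes (horizontal axis). Points are arrays in replicate order and bars are the mean and SD (n = 4). The amiNAA10 arrays lie below all WT arrays for GNAT1, GNAT2, GNAT3, GNAT6, GNAT7 and GNAT10, and overlap them for GNAT4 and GNAT5.

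GNAT1 and GNAT2 are both able to acetylate serotonin in vitro, a step of melatonin synthesis, and GNAT2 is known as the plastid lysine acetyltransferase that leaves need for state transitions, the movement of light-harvesting antenna between the photosystems. GNAT2 was at 6.51, 6.55, 6.54 and 6.12 in WT replicates 1 to 4 and at 5.93, 5.58, 5.57 and 5.72 in those of amiNAA10. The groups did not overlap, although the fourth WT array lay well below the other 3. Its difference was -0.73 (SE 0.13, 95% interval -1.004 to -0.46, limma adjusted p = 0.000382). In the HYPK lines GNAT2 ran from 6.22 to 6.40 (exon 1) and from 6.21 to 6.66 (exon 2), within or just above the WT range, and differed from WT by -0.12 (95% interval -0.39 to 0.15) and -0.01 (-0.28 to 0.26). Neither difference passed the test (limma adjusted p = 0.586 and 0.964). All exon 1 arrays lay below WT replicates 1, 2 and 3. Without WT replicate 4 the differences were -0.22 (exon 1) and -0.12 (exon 2), also not called (limma adjusted p = 0.244 and 0.602).

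GNAT1 was at 6.23, 6.33, 6.17 and 5.99 in WT and at 5.54, 5.01, 5.47 and 5.65 in amiNAA10, a difference of -0.76 (SE 0.15, limma adjusted p = 0.00130). All amiNAA10 arrays were below all WT arrays, and replicate 2 was the lowest of the line. The means of the HYPK lines lay between, and their arrays ran from 5.75 to 6.33 in the exon 1 line and from 5.67 to 6.07 in the exon 2 line, overlapping WT. Their differences from WT were -0.20 (95% interval -0.53 to 0.12, limma adjusted p = 0.402) and -0.28 (-0.61 to 0.05, limma adjusted p = 0.258).

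GNAT3 was at 5.61, 5.67, 5.45 and 5.49 in WT and at 5.16, 4.69, 4.63 and 4.62 in amiNAA10, a difference of -0.78 (SE 0.16, limma adjusted p = 0.00143). Replicate 1 of amiNAA10 lay well above the other 3 arrays of its line but still under every WT array. In the exon 1 line GNAT3 was at 5.29, 5.20, 4.98 and 5.42, also under every WT array, with a difference of -0.33 (95% interval -0.67 to 0.01). That difference was not called (limma adjusted p = 0.171), although the exact permutation test gave p = 0.0286. The exon 2 line was the most scattered, at 5.74, 5.65, 5.29 and 5.03, and spanned the WT range (difference -0.12, limma adjusted p = 0.679).

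GNAT10 had the largest difference of the 8 genes in amiNAA10. It was at 7.70, 7.74, 7.57 and 7.35 in WT and at 6.63, 5.98, 6.47 and 6.60 in amiNAA10, a difference of -1.17 (SE 0.18, 95% interval -1.54 to -0.80, limma adjusted p = 0.000109). In the exon 1 line it was at 7.37, 6.84, 6.96 and 6.92, which was 67.6% of the WT level (-0.57, SE 0.18, limma adjusted p = 0.0319). One array of that line, replicate 1, lay inside the WT range and the other 3 lay below it. The call ended when any of WT replicates 1, 2 and 3 or exon 1 replicates 2, 3 and 4 was left out, with limma adjusted p-values up to 0.0940. In the exon 2 line GNAT10 was at 7.27, 7.38, 7.13 and 6.67, or 71.9% of the WT level (-0.48, 95% interval -0.85 to -0.11), and did not pass the test (limma adjusted p = 0.0822).

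GNAT7 was the gene of the set that lay below WT on every array of every line. It was at 8.14, 8.10, 7.97 and 7.99 in WT and at 7.36, 7.26, 7.30 and 7.48 in amiNAA10 (-0.70, SE 0.10, limma adjusted p = 6.60e-05). The exon 1 line was at 7.55, 7.59, 7.82 and 7.53, or 74.5% of the WT level (-0.42, SE 0.10, limma adjusted p = 0.00674). The exon 2 line was at 7.91, 7.68, 7.85 and 7.82, or 85.0% of the WT level (-0.23, 95% interval -0.44 to -0.02), which was not called (limma adjusted p = 0.132), with an unadjusted exact permutation p of 0.0286. No other of the 8 genes had all 12 arrays of the 3 lines on one side of WT, and 10.4% of all probe sets did. The order of the genotype means was WT, exon 2 line, exon 1 line and amiNAA10. Of these neighbours the arrays of the exon 1 and exon 2 lines overlapped, while WT and the exon 2 line, and the exon 1 line and amiNAA10, did not.

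GNAT6, which has been located in plastids and in the nucleus, changed least among the called genes. It was at 6.21, 6.41, 6.41 and 6.33 in WT and at 5.86, 6.06, 5.96 and 6.21 in amiNAA10 (-0.32, SE 0.11, limma adjusted p = 0.0381). The highest amiNAA10 array and the lowest WT array were almost level. This call ended without WT replicate 2, 3 or 4 and without amiNAA10 replicate 1, 2 or 3 (limma adjusted p between 0.0615 and 0.118), in the fit of these 2 genotypes alone (limma adjusted p = 0.0574) and after scaling to 5 reference genes (-0.25, limma adjusted p = 0.185). In the HYPK lines it ran from 5.99 to 6.34, with differences from WT of -0.12 (exon 1) and -0.13 (exon 2) that were not called (limma adjusted p = 0.502 and 0.505).

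GNAT4, described as the plastid N-terminal acetyltransferase NAA70, had no call against WT in any line. It was at 6.73, 6.68, 6.72 and 6.95 in WT and at 6.83, 6.33, 6.61 and 6.97 in amiNAA10, where the WT arrays lay inside the range of the line (difference -0.08, 95% interval -0.36 to 0.20, limma adjusted p = 0.713). In the exon 1 line GNAT4 was at 7.10, 7.09, 7.05 and 7.27, above every WT array, and in the exon 2 line at 7.04, 6.82, 7.13 and 7.23. These differences of 0.36 (95% interval 0.08 to 0.65) and 0.29 (0.003 to 0.57) were not called (limma adjusted p = 0.0692 and 0.174). The mean of both HYPK lines was 0.32 above WT (SE 0.12, 95% interval 0.08 to 0.57, limma adjusted p = 0.0544, unadjusted exact permutation p = 0.00404). This value lay next to the threshold: it was called without the dimmest 30% of probe sets (limma adjusted p = 0.0443), with a variance trend and robust estimate (0.0465), in the fit of the HYPK lines and WT alone (0.0352), and without any 1 of WT replicate 4, amiNAA10 replicate 2 or 4 and exon 2 replicate 2 (0.0311 to 0.0434). It was not called after scaling to the reference genes or without any of the other arrays.

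GNAT5 showed no difference that passed the test in any comparison. It was at 4.57, 3.88, 4.39 and 4.31 in WT, and the 4 amiNAA10 arrays lay within 4.27 to 4.37, inside the WT range. The HYPK lines ran from 4.38 to 4.61 (exon 1) and from 4.05 to 4.68 (exon 2). Its differences from WT were 0.03 in amiNAA10 (95% interval -0.28 to 0.33), 0.20 in the exon 1 line (-0.11 to 0.50) and 0.12 in the exon 2 line (-0.19 to 0.43), the last at -0.02 after scaling to the reference genes. Its arrays scattered more in WT (SD 0.29) and in the exon 2 line (SD 0.27) than in amiNAA10 (SD 0.05).

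**Figure D2:**
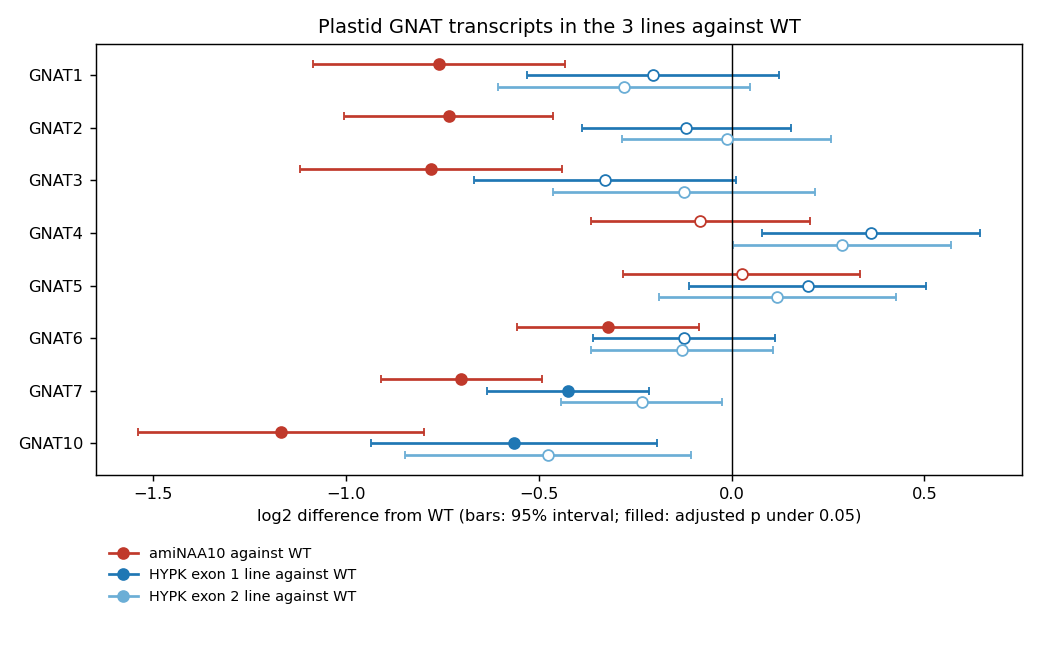
Log2 difference from WT (horizontal axis) of each plastid GNAT transcript (vertical axis) in amiNAA10 and in each HYPK line, with 95% intervals from limma and filled points where the adjusted p was under 0.05. In amiNAA10, 6 genes were called, in the exon 1 line GNAT7 and GNAT10, and in the exon 2 line none.

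In the HYPK lines the family had fewer calls, all of them falls. All comparisons with WT share the same 4 WT arrays, so their results are not independent of each other. Of the 8 genes 2 were called in the exon 1 line, GNAT7 and GNAT10, against 19.6% of all probe sets called and 9.89% called lower. A share of 2 in 8 is near that background. In the exon 2 line limma called 0 of 8, against 13.8% of all probe sets called and 6.82% called lower. At an unadjusted p under 0.05, 3 of the 8 differed there, near the background of 7794 of 27826 probe sets, and the exact permutation test gave p = 0.0286 for GNAT7 only. Arrays of the exon 1 line lay entirely above or below WT for 3 genes (22.4% of all probe sets), and those of the exon 2 line for 1 (17.2%). Averaged and set against WT, the HYPK lines gave 2 falls, GNAT7 (-0.33, SE 0.09, limma adjusted p = 0.0109) and GNAT10 (-0.52, SE 0.15, limma adjusted p = 0.0205), against 22.7% of probe sets called and 11.5% called lower. Without WT replicate 1 or 2, the call of GNAT10 in this comparison ended (limma adjusted p = 0.0637 and 0.0685). The median difference of the 8 genes in the mean of both lines was -0.18, against -0.01 over all probe sets. Without exon 2 replicate 4, the array that stood apart, both of these calls and those of the exon 1 line stood and the exon 2 line still had 0, while the share of all probe sets called in the exon 2 line went from 13.8% to 7.54%.

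The exon 1 and exon 2 lines were then compared with each other, to see whether the 2 insertions differ in these transcripts. None of the 8 genes was called, and none had an unadjusted limma p under 0.05. Their differences ran from -0.21 (GNAT3) to 0.08 (GNAT5), and no gene had arrays that did not overlap. Over all probe sets 0.00719% were called and 2.17% did not overlap. The widest 95% interval was that of GNAT10, from -0.46 to 0.28.

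The difference between the effects of the knockdown and of the HYPK insertions was tested directly by setting the averaged HYPK lines against amiNAA10, in which WT drops out. All 8 differences were above 0, and 6 were called higher in the HYPK lines, with a median of 0.46, against 0.01 over all probe sets. Over all probe sets 10.2% were called and 5.34% were called higher. GNAT2 was 158.9% of its amiNAA10 level (0.67, SE 0.11, limma adjusted p = 0.00153). Its exact two-sided permutation p was 0.00202, the lower limit for 8 arrays against 4. GNAT10 differed by 0.65 (SE 0.15, limma adjusted p = 0.0125), GNAT3 by 0.55 (limma adjusted p = 0.0185), GNAT1 by 0.52 (0.0213), GNAT4 by 0.40 (0.0347) and GNAT7 by 0.37 (0.0115). GNAT6 (0.20) and GNAT5 (0.13) were not called (limma adjusted p = 0.234 and 0.596). All amiNAA10 arrays lay below all arrays of the exon 1 line for 6 genes, against 13.3% of probe sets that did not overlap there, and below those of the exon 2 line for 4 (11.8%). These 4 were GNAT1, GNAT2, GNAT7 and GNAT10.

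Of these 6 calls 5 ended without replicate 2 of amiNAA10, which was the lowest array of its line for GNAT1, GNAT4, GNAT7 and GNAT10. The share of all probe sets called in this comparison went from 10.2% to 4.98% without it, and GNAT2 was the only member still called. The differences of GNAT3 (0.52) and GNAT7 (0.34) were close to those with all arrays (limma adjusted p = 0.0695 and 0.0537), and those of GNAT10, GNAT1 and GNAT4 were 0.50, 0.38 and 0.29 (limma adjusted p = 0.0674, 0.108 and 0.166). Without amiNAA10 replicate 3, 5.38% of probe sets were called and 3 members kept their call, while GNAT1, GNAT3 and GNAT4 were at 0.54, 0.50 and 0.38 (limma adjusted p = 0.0539, 0.0742 and 0.110). In the fit of these groups alone the call of GNAT4 ended (limma adjusted p = 0.0571). After scaling each array to the mean of 5 reference genes, GNAT2 was again the only call, GNAT10 was at 0.45 (limma adjusted p = 0.0528), and no called gene changed sign. That scaling moved the median of all probe sets by -0.19 in this comparison and left the distance of each gene from that median as it was. Of the 5 reference genes, the ubiquitin-conjugating enzyme gene UBC9 (0.56) and the actin gene ACT2 (0.35) were themselves called higher in the HYPK lines than in amiNAA10 (limma adjusted p = 0.00608 and 0.0205).

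Genes of related plastid processes were listed by locus code to place the family. As background, 30.7% of all probe sets were called in amiNAA10 and 15.4% were called lower. Among the probe sets above the dimmest 30%, 44% were called. In amiNAA10, 12 of 15 genes of state transitions and the mobile antenna fell and none rose (median -0.73), including the photosystem I genes PSAL (-1.01, SE 0.12, limma adjusted p = 1.88e-05) and PSAH2 (-0.94, SE 0.12, limma adjusted p = 2.53e-05), whose products form the docking site of the antenna. This list also holds STN8 and PBCP, the kinase and phosphatase genes of the photosystem II core. Its differences ran from -1.25 (PBCP) to -0.12 (TAP38, the antenna phosphatase gene). The LHCB1 genes on this list are near-identical copies, and their probe sets may read each other's transcripts. Of 3 deacetylase genes 2 fell: HDA14, a plastid protein deacetylase, by 1.61 (SE 0.15, limma adjusted p = 2.47e-06) and SRT2, a sirtuin, by 0.71 (SE 0.16, limma adjusted p = 0.00234). Thus transcripts for an enzyme that adds acetyl groups to plastid lysines, GNAT2, and for one that removes them, HDA14, were both lower on the knockdown arrays.

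Not all plastid-related lists moved in this way. None of 7 genes of the plastid import machinery was called in amiNAA10 (median -0.01), by limma at an adjusted p under 0.05. Of 9 genes that trim or degrade amino-terminal sequence in organelles, 3 fell and 1 rose, with the plastid peptide deformylase PDF1B at -1.22 (SE 0.15, limma adjusted p = 1.67e-05) and the methionine aminopeptidase MAP1D at -0.73 (SE 0.13, limma adjusted p = 0.000318). Of 11 genes that make or use plastid acetyl-CoA, the donor of the acetyl group, 2 rose and 1 fell. Acetyl-CoA synthetase ACS rose by 0.84 (SE 0.18, limma adjusted p = 0.00210), and PDH-E1_BETA, a subunit of the plastid pyruvate dehydrogenase, fell by 0.49 (SE 0.13, limma adjusted p = 0.00955). Of all probe sets 30.7% were called in amiNAA10, and 44% among those above the dimmest 30%. The shares called among the 9 and the 11 genes, 44.4% and 27.3%, were near that background.

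The cytosolic N-terminal acetyltransferase list had 3 rises and 2 falls among 10 in amiNAA10, where 30.7% of all probe sets were called. NAA10 was lower by design, and NAA15 was higher by 0.43 (SE 0.10, limma adjusted p = 0.00343). NATA1 and NATA2, GNAT-type genes whose products are not counted as plastid enzymes and which lie 3 and 2 loci away from GNAT4 on chromosome 2 (loci between them, RefSeq order), were not called in amiNAA10. NATA2 fell in the exon 1 line (-0.59, SE 0.14, limma adjusted p = 0.00725) and in the exon 2 line (-0.47, SE 0.14, limma adjusted p = 0.0326), while its neighbour GNAT4 stood at 0.36 and 0.29 there. NATA1 varied from 3.001 to 6.99 over the 16 arrays, too widely for a call in any comparison.

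**Figure D3:**
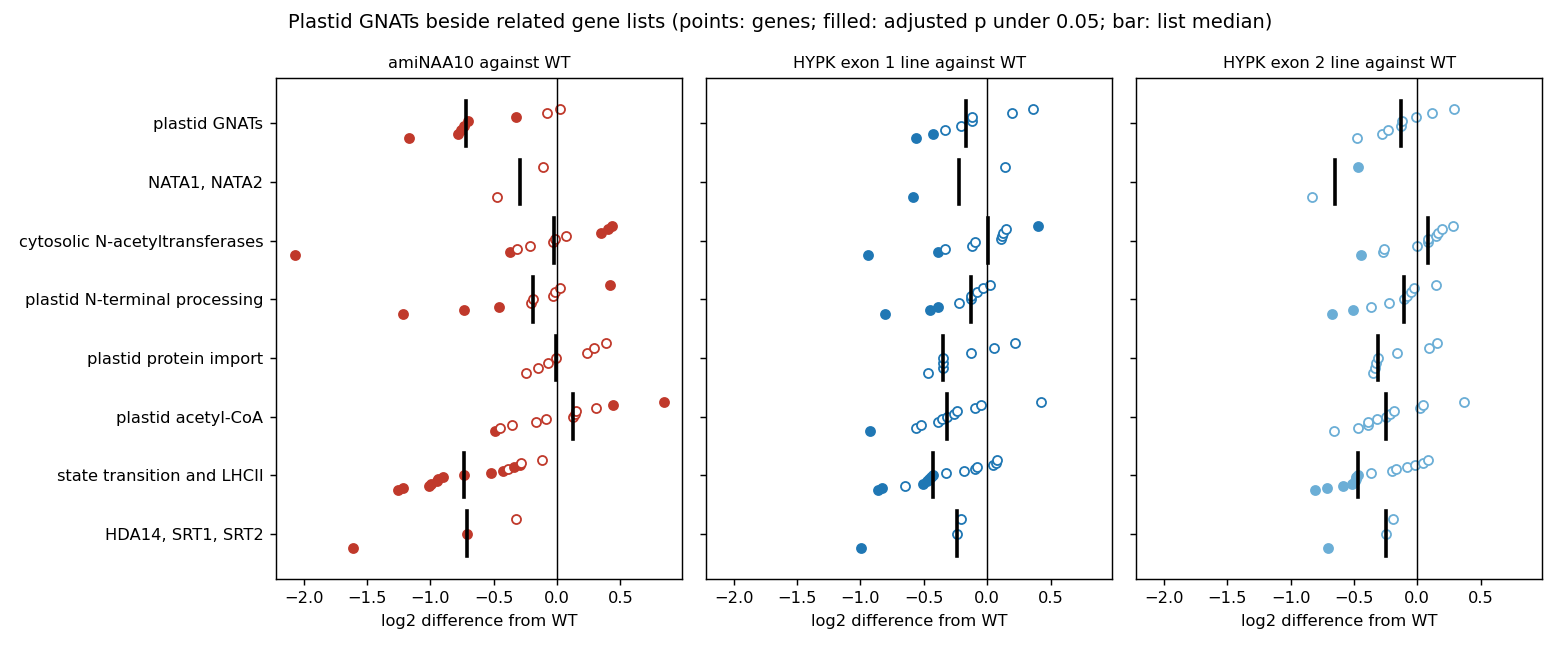
Log2 difference from WT (horizontal axis) of each gene of the plastid GNAT family and of 7 related lists (rows) in amiNAA10, the exon 1 line and the exon 2 line (panels). Points are genes, filled where the limma adjusted p was under 0.05, and bars are list medians. In amiNAA10 the median of the plastid GNATs lies at -0.72 and that of the import machinery at -0.01.

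In the HYPK lines the related lists held fewer calls than in amiNAA10, except that import stayed at 0 of 7 and the number of calls for NATA1 and NATA2 went from 0 to 1 of 2. These differences in count were not tested, and fewer of all probe sets were called in the HYPK lines too. The shares were 19.6% in the exon 1 line (9.89% lower) and 13.8% in the exon 2 line (6.82% lower), against 30.7% in amiNAA10. State transition and antenna genes fell in 7 of 15 cases in the exon 1 line and 8 of 15 in the exon 2 line, with PSAH1 at the smallest adjusted p of the list in each (-0.51 and -0.47, limma adjusted p = 0.00215 and 0.00627). HDA14 fell in both lines (-0.997 and -0.71, limma adjusted p = 0.000392 and 0.00667), as did PDF1B (-0.81 and -0.67, limma adjusted p = 0.00121 and 0.00676) and PREP2, which degrades cleaved targeting peptides (-0.45 and -0.51, limma adjusted p = 0.0351 and 0.0259). In the direct comparison of HYPK lines and amiNAA10, 8 of 15 state transition genes were higher in the HYPK lines, among them the antenna gene LHCB2.1 (0.65, limma adjusted p = 0.00414), and HDA14 was higher by 0.76 (limma adjusted p = 0.00202). Of all probe sets 10.2% were called in that comparison and 5.34% were called higher. Further genes with the smallest adjusted p in their lists in the exon 1 line were the NatB catalytic subunit gene NAA20 (0.40) and the plastid lipoamide dehydrogenase gene LPD2 (-0.93). The photosystem II core phosphatase gene PBCP (-0.86) was another. In the exon 2 line they were NAA50 (-0.44) and PSAL (-0.51). Between the HYPK lines and amiNAA10 they were PSAL (0.53), SRT2 (0.49), PDF1B (0.48), NAA10 (2.01), NAA15 (-0.29), NATA2 (-0.42), AT1G13270, a methionine aminopeptidase gene (-0.49), LPD1 (-0.44) and the acetyl-CoA carboxylase gene BCCP2 (-0.71). BCCP2 was dim, with every HYPK array at 1.39 to 1.72, under the level of 1.83. In amiNAA10 its replicate 3 was at 3.28, against 1.72 to 2.34 on the other arrays of the line. The import channel gene TIC110 was lower in the HYPK lines than in amiNAA10 by 0.64 (limma adjusted p = 0.0106), opposite in sign to the GNAT genes.

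Markers of leaf cell types also moved between the genotypes. Of 4 mesophyll markers 3 fell in amiNAA10, and their summed level ran from 13.501 to 13.73 against 13.81 to 13.87 in WT. All 4 vascular markers fell (7.97 to 8.19 against 9.12 to 9.28), as did 4 of 5 markers of guard and myrosin cells (11.82 to 11.96 against 11.95 to 12.01). The last sum is mostly TGG1, which was not called (-0.05), and does not show the falls of SLAC1 (-1.43), MYB60 (-0.93), KAT1 (-0.91) and FAMA (-0.55). Of the 4 markers of leaf senescence only SEN1 was called, and it rose (2.73, limma adjusted p = 5.71e-06). Their summed level was 8.71 to 9.03 against 7.18 to 7.65, while the median difference of the list was 0.45. The sum adds levels taken off the log2 scale, so 1 gene can move it. In the HYPK lines mesophyll markers summed to 13.74 to 13.87, vascular markers to 8.46 to 8.65, guard and myrosin cell markers to 11.58 to 11.94 and senescence markers to 8.16 to 8.93. In the exon 1 and exon 2 lines 3 and 3 of 4 vascular, 4 and 3 of 5 guard and myrosin cell, and 1 and 0 of 4 mesophyll markers fell. Of 4 senescence markers 2 and 1 rose, and no marker of these 4 lists was called the other way. The shares of all probe sets called were 30.7% in amiNAA10, 19.6% in the exon 1 line and 13.8% in the exon 2 line. Of 4 epidermis markers PDF1 rose in amiNAA10 (3.39, limma adjusted p = 2.53e-05), and the list summed to 9.80 to 10.22 against 9.84 to 10.07. Of 3 root markers PYK10 rose (1.86, limma adjusted p = 0.00274; list 6.02 to 6.46 against 6.04 to 6.28), and of 4 floral markers 1 fell (list 3.55 to 3.82 against 3.84 to 4.07). The floral markers AP1, AP3 and AG, the root marker RHD6 and the senescence marker SAG12 had means under 1.83 over all arrays. In a whole leaf, fewer cells of a type and less RNA per cell cannot be told apart, and the part of these shifts in the GNAT differences was not tested.

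How the 8 transcripts varied together is described by Pearson's r over the 16 arrays, which share the genotype differences above and the normalization. The 28 pairs ran from -0.11 to 0.95 with a median of 0.48. GNAT1 and GNAT10 had the highest value, 0.95, and GNAT2, GNAT3 and GNAT7 correlated with GNAT10 at 0.84 to 0.86. GNAT4 and GNAT5 had no value above 0.38 with any other member. After each genotype's mean was subtracted, so that only the spread among arrays of a genotype was left, the median fell to 0.16, but GNAT1 and GNAT10 stayed at 0.91 and GNAT2 and GNAT10 at 0.69. GNAT7 and GNAT10, both called lower in amiNAA10 and in the exon 1 line, were at 0.16 on this measure. The lowest array of the genotype was the same for GNAT10 and GNAT1 in WT (replicate 4), in amiNAA10 (replicate 2, 5.98 and 5.01) and in the exon 2 line (replicate 4, 6.67 and 5.67). In the exon 1 line it was replicate 2 for GNAT10 (6.84) and replicate 3 for GNAT1 (5.75).

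**Figure D4:**
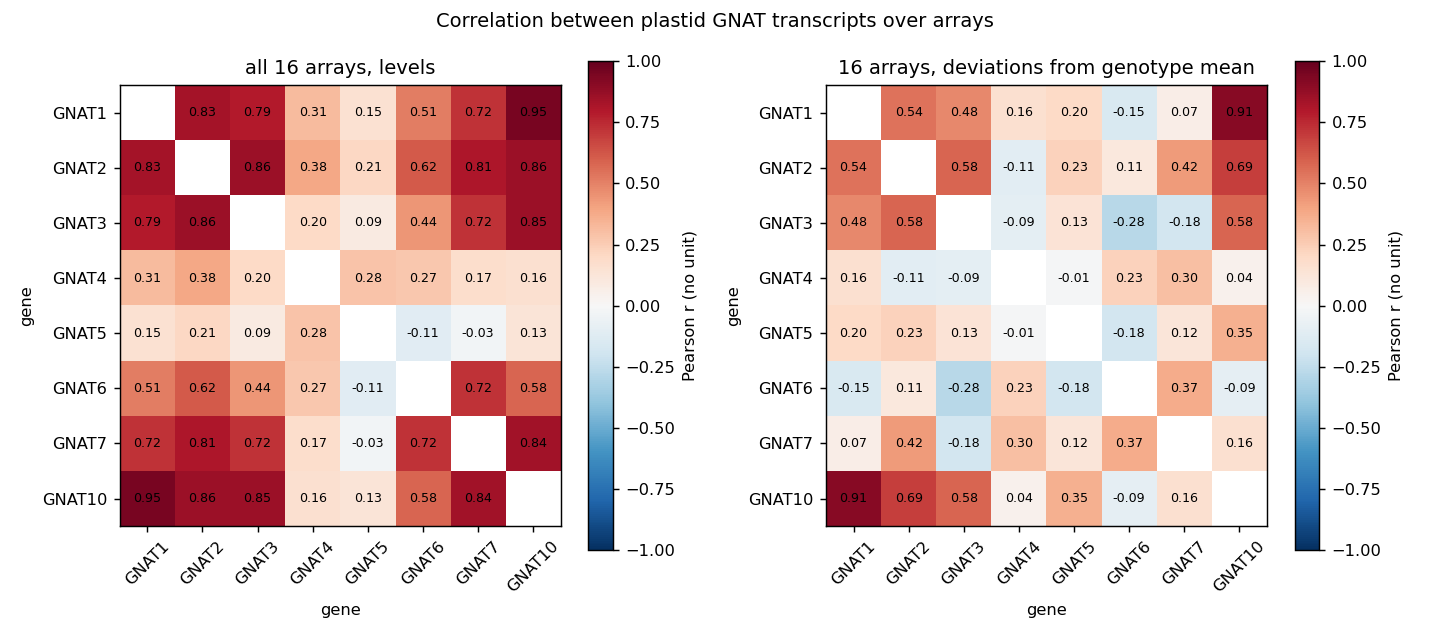
Pearson's r between the 8 plastid GNAT transcripts over the 16 arrays, for the log2 levels (left) and for deviations from the genotype means (right), with the colour scale from -1 to 1. GNAT1 and GNAT10 are at 0.95 on the left and 0.91 on the right, and GNAT4 and GNAT5 are weakly correlated with the other members.

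The 3 genes most like each member were taken from 8204 probe sets above the dimmest 30% that have a RefSeq symbol, by Pearson's r over the 16 arrays, as a description. GNAT10 was most like AOR, a plastid alkenal reductase (r = 0.99), NdhM, a subunit of the plastid NADH dehydrogenase-like complex (0.99), and VTE1, the tocopherol cyclase (0.98), and within genotypes these pairs were at 0.95, 0.94 and 0.91. GNAT2 was most like VAR2, a thylakoid FtsH protease (0.96), CAO, which makes chlorophyll b (0.94), and OHP2, a one-helix protein of the thylakoid (0.94). GNAT3 was most like CRR28, a plastid RNA editing factor (0.94), VAR1, another thylakoid FtsH protease (0.94), and GUN4, a regulator of chlorophyll synthesis (0.93). For GNAT1 the genes were CaS, a thylakoid calcium-sensing protein, the basic helix-loop-helix factor BEE2 and the carboxypeptidase-like scpl48 (all 0.95).

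GNAT7 was most like the peptide hormone gene RALFL24 (0.95), MGD2, a galactolipid synthase (0.94), and the expansin EXPA16 (0.93), the last at only 0.32 within genotypes. GNAT6 was most like the phloem protein gene PP2-B1 (0.87), the myosin XIJ (0.87) and the asparaginase ASPGA1 (0.86). GNAT4 was most like the ion channel gene DND1 (0.86), the APS kinase APK4 (0.86) and CER3 of wax synthesis (0.86). GNAT5 had the lowest values, with CYP716A1 (0.77), ETP2 (0.74) and the cullin gene CUL4 (0.73).

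Part of the signal of a probe set could come from an overlapping gene, and, in RefSeq, 6 of the 8 loci overlap another locus, all but GNAT4 and GNAT7. Which probes lie in the overlap was not used here. The partner of GNAT10, dNK, moved the other way in amiNAA10 (0.51, SE 0.17, limma adjusted p = 0.0284), and so did that of GNAT3, FRS1 (0.95, SE 0.22, limma adjusted p = 0.00363), and that of GNAT6, AT2G06040 (0.58, SE 0.16, limma adjusted p = 0.0115). The partner of GNAT2 is PRK, the phosphoribulokinase of the Calvin cycle, at -0.44 (SE 0.17, limma adjusted p = 0.0553). GNAT1 overlaps 2 long noncoding loci that were at -0.49 and -0.33 and were not called (limma adjusted p = 0.119 and 0.164). The partner of GNAT5, AT1G24030, was at -0.33 in amiNAA10 (limma adjusted p = 0.162) and fell in the mean of both HYPK lines (-0.47, SE 0.15, limma adjusted p = 0.0292), where GNAT5 was at 0.16.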

How the data were processed

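The deposited values are log2 expression levels that the authors made with RMA (per the submitters' processing notes), 1 for each probe set on each array. No source used here gives the array design, probe annotation or software version. Sorted values differed between arrays by 0.0019 at most, so the arrays share one distribution, and a shift of total RNA would not be visible. No detection call or depth is part of the table, and the 4 arrays per genotype limit precision.

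From these values 1 linear model with a mean per genotype was fitted to all 16 arrays and 27826 probe sets with limma 3.58.1 (R 4.3.3, lmFit and eBayes), with neither filter nor block. For the 6 contrasts two-sided p-values were adjusted by Benjamini and Hochberg's method (threshold 0.05). Two-sided exact permutation tests over arrays were run for the 8 genes in the 6 comparisons (48 tests), without adjustment of their p-values. The fit was tested on simulated data. Alternatives were the groups compared alone, a variance trend with robust estimation, removal of the dimmest 30% of probe sets, scaling to 5 reference genes, the replicate number as a block, a threshold of 0.01 and leaving out each array. Gene names other than those of the listed loci come from a RefSeq gene table (TAIR10.1), in which 27241 probe sets matched a locus. It was used for names, order and overlap only.

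The genes and lists were chosen with earlier results of these data known. All 8 genes are named in every comparison, with NAA10 and HYPK as label checks, at most 2 called genes with the smallest adjusted p from each related list in a comparison, and the 3 genes most like each member. NATA1, LHCB1, STN8, TAP38, the overlapping loci, the genes that show a list's course across lines and the guard cell and dim markers were named after their values were seen. Sequences were not used here, so the promoter and protein descriptions that had been planned were not made.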

Additional observations from a re-analysis of the deposited data

Results flagged for a closer look

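In 2 of 32 sets of 4 arrays (8 genes in 4 genotypes), an array lay far from the other 3, where chance alone would flag about 1 in 20. GNAT2 in WT replicate 4 was at 6.12, while the other WT arrays were at 6.51 to 6.55. Leaving that array out changed the difference of GNAT2 in amiNAA10 from -0.73 to -0.84. GNAT3 in amiNAA10 replicate 1 was at 5.16, while the other arrays of the line were at 4.62 to 4.69, and without it the difference was -0.91.

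The effects of the HYPK insertions and of the NAA10 knockdown differed, in the direct test of the averaged HYPK lines against amiNAA10, for GNAT1 (0.52), GNAT2 (0.67), GNAT3 (0.55), GNAT4 (0.40), GNAT7 (0.37) and GNAT10 (0.65). Values are log2 differences, higher in the HYPK lines. Without amiNAA10 replicate 2 only GNAT2 kept its call.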

How the results depend on the processing

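The 5 calls of GNAT1, GNAT2, GNAT3, GNAT7 and GNAT10 in amiNAA10 against WT stood under every alternative run. The count of 6 stayed at 5 to 6. At a threshold of 0.01 the count was 1 for the exon 1 line, 0 for the averaged HYPK lines against WT (2 at 0.05) and 1 for the HYPK lines against amiNAA10. Scaling to 5 reference genes gave 2 falls in the exon 2 line, GNAT7 (-0.37) and GNAT10 (-0.61), and 1 call for the HYPK lines against amiNAA10; it moved the median of all probe sets by -0.12 for the averaged HYPK lines against WT and by 0.07 for amiNAA10. GNAT5 changed sign under it, to -0.019 in the exon 2 line and to -0.062 for the HYPK lines against amiNAA10. The same scaling moved the share of calls that were higher from 52.2% to 10.4% in that last comparison (2850 calls, then 5101), from 49.5% to 31.1% in the exon 1 line, from 50.8% to 24% in the exon 2 line and from 49.2% to 27.5% for both lines. The fit of the exon 2 line and WT alone called 2477 probe sets in place of 3852.

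Leaving out 1 array at a time gave 1 to 3 calls for the exon 1 line and for the averaged HYPK lines against WT, and 1 to 6 for the HYPK lines against amiNAA10. GNAT3 lost its call in the last comparison without amiNAA10 replicate 2, 3 or 4, and GNAT4 without amiNAA10 replicate 2 or 3, exon 1 replicate 1 or 4, or exon 2 replicate 1 or 3. GNAT4 was called in the exon 1 line without amiNAA10 replicate 2 (adjusted p = 0.0408, limma) and in the fit of that line and WT alone (0.0454, limma). Differences that were never called changed sign when 1 array was left out for GNAT2 in the exon 2 line (-0.12 to 0.058), GNAT3 in the exon 2 line (-0.23 to 0.0099), GNAT4 in amiNAA10 (-0.18 to 0.037), GNAT5 in amiNAA10 (-0.11 to 0.12) and in the exon 2 line (-0.017 to 0.24), and between the insertion lines for GNAT1 (-0.044 to 0.15), GNAT4 (-0.0034 to 0.13), GNAT5 (-0.041 to 0.17), GNAT6 (-0.047 to 0.082) and GNAT10 (-0.24 to 8.14e-05). The cause of these changes was not tested, beyond the fewer arrays in each fit.

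Samples with the same replicate number did not deviate together: 5 of 24 pairs had a correlation over 0.1 (-0.29 to 0.30), so the numbers do not pair the samples. With the replicate block the counts of called members were 6 in amiNAA10, 3 in the exon 1 line, 0 in the exon 2 line, 3 for both HYPK lines, 0 between the lines and 6 for the HYPK lines against amiNAA10, where the third call in the exon 1 line and in both lines was GNAT4 (0.36, adjusted p = 0.0304, and 0.32, adjusted p = 0.0227, limma). The block called 8359 probe sets in amiNAA10 in place of 8549.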
